A study of Mus musculus with 3 samples.

Results

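Expression of 10 genes of the antioxidant defense (*Sod1*, *Sod2*, *Sod3*, *Cat*, *Gpx1*, *Gpx3*, *Prdx6*, *Nfe2l2*, *Hmox1*, and *Nqo1*) was described across the cell types of the postnatal mouse lung. The genes were found by symbol among the 28692 counted features, and each symbol matched 1 feature. Levels came from droplet scRNA-Seq (10x Genomics, 3′ chemistry version 3), in which every captured transcript carries a unique molecular identifier (UMI), so that copies made by PCR are counted once. The lungs came from 3 wild-type C57BL/6 mice (mice 2, 3, and 4) kept in room air (RA) from day 1 to day 14 of life and taken at P14, in the alveolar stage of lung growth. The mice form 1 condition, without a treated or mutant group, so the comparisons are between cell types of the same lungs. Whole lung was dissociated and 16000 cells were loaded per mouse, so the share of a cell type also carries how well it survived dissociation.

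Oxygen metabolism yields superoxide, which superoxide dismutases convert to hydrogen peroxide. Catalase, the glutathione peroxidases, and the peroxiredoxins then remove the peroxide, each in its own compartment. The transcription factor NRF2, encoded by *Nfe2l2*, binds antioxidant response elements in the DNA and turns on genes such as *Hmox1* and *Nqo1* under oxidative stress, and the newborn lung is exposed to a sharp rise in oxygen at birth.

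The deposited matrices held 9644 cells (3034 to 3475 per mouse) with 22476491 to 25192427 UMIs per mouse. A total of 7642 cells were kept, those with 200 or more genes and no more than 20% of UMIs from mitochondrial genes. Their median depth was 7119, 4853, and 6453 UMIs in mice 2, 3, and 4. Pairs of mice shared 2 to 5 cell barcodes. Clusters were named from lists of marker genes, so a name such as AT2-like says that a cluster has those markers. The kept cells comprised 958 ECs, 1257 epithelial cells, 1542 stromal cells, 3028 immune cells, 31 platelet-like cells, and 826 cells of no class. Within these, 22 cell types were named and 891 cells had no type. Immune cells were mostly B-cell-like (58.9% of the cells and 55.4% of the UMIs of the class), and 1043 of the epithelial cells were AT2-like. Values for a class therefore lean toward its most abundant type. The class markers were where their names put them: EC markers summed to 10202 CPM or more in ECs and to 217 CPM or less in the other classes, and epithelial, stromal, and immune markers were likewise highest in their own class. Levels are given as CPM, the UMIs of a gene per 1e6 UMIs of the same cell type and mouse, with a mean ± SD over mice, for types with at least 10 cells in a mouse. They are compared between cell types and not between genes. CPM is not scaled for the composition of a type. In AT2-like cells *Sftpc* alone made up 176709 CPM, which leaves fewer CPM for their other genes. The place of AT2-like cells by CPM can therefore differ from that by the fold changes given further on, which are scaled for composition. This was so for *Prdx6*, *Sod1*, and *Nfe2l2*.

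The core of the antioxidant response element was searched for in RefSeq promoters (GRCm38.p6, 250 bases before to 50 bases after the start of a gene), because these are the bases through which NRF2 acts. The letters searched were TGACNNNGC on either strand (GCNNNGTCA when read on the other), which do not overlap another motif searched. Promoters of 7 of the 10 genes were matched, and those of *Sod3*, *Prdx6*, and *Hmox1* were not. The letters were in 2 of the 7, against 12.4% of all 32851 promoters. Both windows are shown 5′ to 3′ on the strand of the gene, with the matched letters in capitals, and a match is a description and not a binding site.
*Sod1*, chr16:90220696-90220724, plus strand, letters 56 to 48 bases before the start and on the other strand: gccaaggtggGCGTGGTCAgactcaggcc
*Nfe2l2*, chr2:75704885-75704913, minus strand, letters 240 to 232 bases before the start: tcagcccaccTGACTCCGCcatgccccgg

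Of the 3 superoxide dismutase genes, *Sod1* and *Sod2* were found in most cell types with the highest levels in epithelial cells, whereas *Sod3* was almost limited to stromal cells. *Sod1* (ENSMUSG00000022982, chr16:90220754-90226329, GRCm38), which encodes the cytosolic copper-zinc enzyme, overlaps *Scaf4* on the opposite strand. Its level was 298, 367, and 319 CPM in club-like cells of mice 2, 3, and 4 and 303, 332, and 306 CPM in AT1-like cells. The ranges of these types overlapped with each other and with that of dendritic-like cells (259, 279.6, and 335 CPM), and all were above the next type, arterial-like ECs, at 239 ± 13.3 CPM (SD, *n* = 3). AT2-like cells had 223 ± 24.6 CPM. Among the types with 3 mice, B-cell-like cells were lowest for *Sod1*, with 40.5, 48.6, and 55.9 CPM. *Sod1* UMIs were in 95.8% of 48 club-like cells (median 38565 UMIs per cell) and in 17.9% of 1783 B-cell-like cells (median 3960 UMIs). With each cell thinned to 1000 UMIs the expected shares were 29.8% and 4.48%.

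*Sod2* (ENSMUSG00000006818, chr17:13006846-13040063), the mitochondrial manganese enzyme, was measured at 157, 224, and 207 CPM in club-like cells. Neutrophil-like cells followed at 174, 92.5, and 121 CPM, with a wide spread between mice that overlapped both club-like and AT1-like cells (112 ± 12.6 CPM). AT2-like cells varied little, at 109 ± 1.4 CPM. Macrophages were close to these, with 105 ± 11.2 CPM in alveolar-macrophage-like and 103 ± 47.3 CPM in interstitial-macrophage-like cells. The lowest level among types with 3 mice was 35.2 ± 10.9 CPM, in fibroblasts of the *Col14a1* type, whose cluster was led by cartilage genes (*Col2a1*, *Col10a1*, *Acan*) beside its own markers.

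*Sod3* (ENSMUSG00000072941, chr5:52363791-52371418), the secreted enzyme that binds to extracellular matrix, had 97.1% of its 6045 UMIs in stromal cells. Smooth-muscle-like cells had 539, 599, and 528 CPM, and fibroblasts of the *Col13a1* type had 557, 557, and 455 CPM. These ranges overlapped, and both lay above the ranges of myofibroblast-like cells (273, 229, and 203 CPM) and fibroblasts of the *Col14a1* type (297, 169.8, and 146 CPM). Below the 4 stromal types the level dropped sharply, to 15.0 ± 12.3 CPM in venous-like ECs. Pericyte-like cells, which wrap capillaries, differed from the other stromal types with 4 *Sod3* UMIs in 133 cells (4.19 ± 4.31 CPM). *Sod3* UMIs were in 95.5% of 291 smooth-muscle-like cells (40.5% when thinned to 1000 UMIs) and in 0.449% of B-cell-like cells (0.118% when thinned). Shares in B-cell-like cells are given for each gene as a comparison only, and the background of free RNA was not measured.

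**Figure D1:**
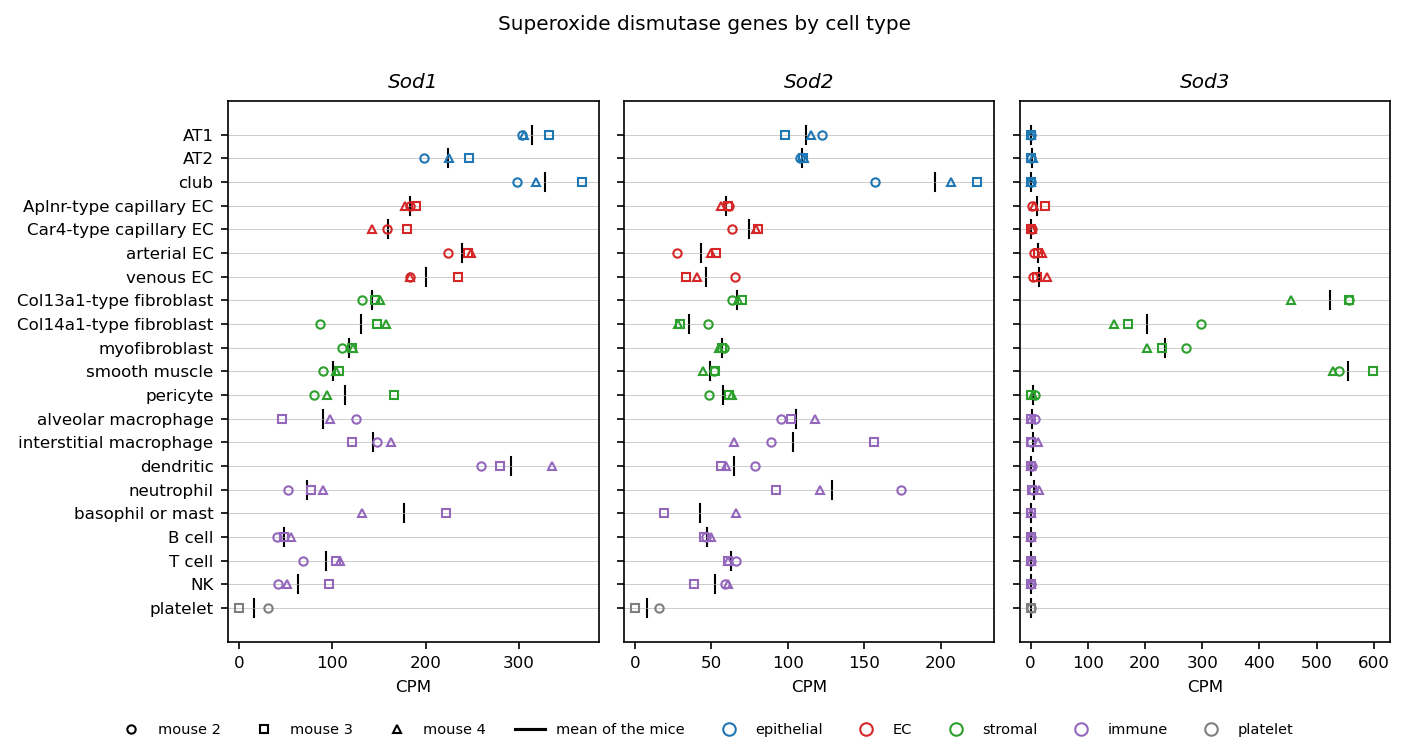
CPM (x axis) of *Sod1*, *Sod2*, and *Sod3* in 21 cell types (rows, colored by class). Open symbols are single mice and the black line is their mean. *Sod3* lies between 146 and 599 CPM in 4 stromal types and at 28.5 CPM or less in every mouse of the other types.

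Genes for peroxide removal peaked in different cell types. *Cat* (ENSMUSG00000027187, chr2:103453849-103485160) encodes catalase of the peroxisome, and 75.5% of its 15605 UMIs were in epithelial cells. AT2-like cells, the source of surfactant, had 555, 666, and 636 CPM. This was above every mouse of the next types, AT1-like cells with 245, 238, and 265 CPM and club-like cells with 258, 177, and 227 CPM. The AT1-like level joins a cluster of 129 cells and a deeper one of 37 cells that also had AT2 markers, described further on. Over pooled cells the larger cluster was below club-like cells for *Cat*, so the place of AT1-like cells rests on the smaller one. Neutrophil-like cells were lowest, at 12.1, 13.8, and 14.1 CPM, and their range lay under that of NK-like cells (54.5 ± 9.78 CPM). *Cat* UMIs were in 97.8% of AT2-like cells (median 16194 UMIs) and in 31.9% of B-cell-like cells, or 44.5% and 9.02% when thinned. In neutrophil-like cells (median 2127 UMIs) the share was 3.22%, or 1.56% when thinned.

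*Gpx1* (ENSMUSG00000063856, chr9:108338903-108340343), a cytosolic selenoenzyme, was highest in myeloid cells. Alveolar-macrophage-like cells had 1415, 1121, and 875 CPM, dendritic-like cells 1162, 1155, and 1055 CPM, and interstitial-macrophage-like cells 1262, 989, and 1099.9 CPM. These 3 types overlapped, and also overlapped with basophil- or mast-like cells (925 and 1075 CPM in the 2 mice with enough cells). Neutrophil-like cells followed at 503 ± 36.9 CPM, below all of them. At the other end, capillary ECs had the lowest levels, with 58.4, 89.1, and 72.5 CPM in the *Aplnr* type and 46.4, 39.2, and 58.3 CPM in the *Car4* type. The ranges of both capillary types nearly met, at 58.4 and 58.3 CPM, and their difference was not called in the test given further on. Both ranges lay under that of arterial-like ECs (107 ± 13.7 CPM). *Gpx1* UMIs were found in 94.4% of alveolar-macrophage-like and 23.8% of *Car4*-type cells, or 63.6% and 4.21% when thinned, against 57.3% and 20.6% in B-cell-like cells.

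*Gpx3* (ENSMUSG00000018339, chr11:54902453-54910377), the secreted glutathione peroxidase, resembled *Sod3* in its class, with 94.2% of 3374 UMIs in stromal cells, but not in its order of types. Fibroblasts of the *Col13a1* type, which lie in the alveolar wall and carry markers such as *Tcf21* and *Inmt*, had 701, 795, and 544 CPM, above every mouse of the other types. Fibroblasts of the *Col14a1* type (159 ± 14.3 CPM), pericyte-like cells (184, 148, and 115 CPM), and myofibroblast-like cells (142, 164, and 62.0 CPM) overlapped with each other. Smooth-muscle-like cells had 71.1, 46.6, and 61.2 CPM, the lowest of the stromal types for *Gpx3* although they had the highest mean for *Sod3*. Outside the stroma, interstitial-macrophage-like cells had 18.9 ± 1.31 CPM from 7 UMIs. No *Gpx3* UMI was found in 106 venous-like ECs, where the floor of 3 UMIs corresponds to 2.34 CPM.

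*Prdx6* (ENSMUSG00000026701, chr1:161240112-161251219) encodes a peroxiredoxin with a single active cysteine that also has phospholipase A2 activity and takes part in surfactant lipid turnover. Its annotated copy *Prdx6b* had 1 UMI in all cells. AT1-like cells, the thin cells of gas exchange, had 1536, 1252, and 1279 CPM. Club-like cells with 788, 581, and 792 CPM and neutrophil-like cells with 472, 519, and 473 CPM came next, and these 3 ranges did not overlap. AT2-like cells had 251, 232, and 231 CPM, below every mouse of *Col13a1*-type fibroblasts (348, 278, and 288 CPM). The fold changes scaled for composition, given further on, did not resolve the order of these types. Over the alternatives they ran from 0.63 to 1.41 in AT2-like cells and from 0.72 to 1.31 in the fibroblasts, and the pair was not tested. Alveolar-macrophage-like cells were lowest with 34.8 ± 4.93 CPM, close to B-cell-like cells (43.5 ± 10.5 CPM). *Prdx6* UMIs were in 92.2% of AT1-like cells and 15.9% of B-cell-like cells, or 75.2% and 3.86% when thinned.

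Platelet-like cells had the highest mean of *Prdx6* (2129 CPM in mouse 2 and 1431 CPM in mouse 3), but the type held 31 cells with a median of 711 UMIs. A single cell of mouse 2 with 56958 UMIs held 66.6% of the UMIs of the type. It held 133 of the 158 *Prdx6* UMIs, 25 of the 27 *Nfe2l2* UMIs, and all 18 *Hmox1* UMIs. Without it the other 30 cells had 874 CPM of *Prdx6*, 69.9 CPM of *Nfe2l2*, and 0 UMIs of *Hmox1*. That cell was not marked as a doublet.

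**Figure D2:**
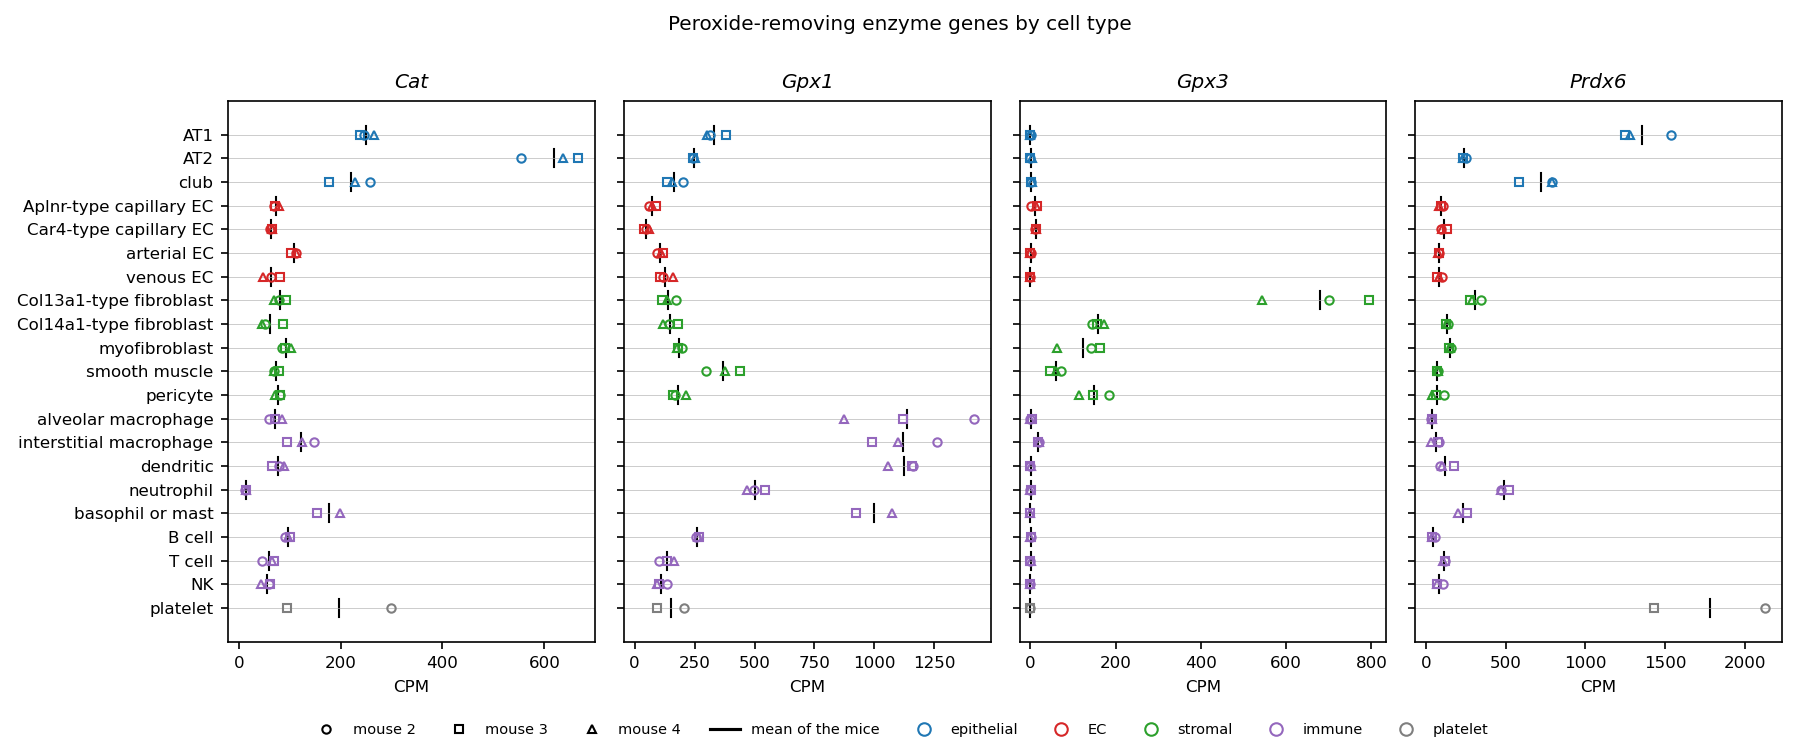
CPM (x axis, a separate scale for each gene) of *Cat*, *Gpx1*, *Gpx3*, and *Prdx6* in 21 cell types (rows, colored by class), with open symbols for single mice and a black line for the mean. *Cat* peaks in AT2-like cells (619 ± 57.6 CPM), *Gpx1* in myeloid cells, *Gpx3* in fibroblasts of the *Col13a1* type (680.2 ± 127 CPM), and *Prdx6* in platelet-like and AT1-like cells.

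*Nfe2l2* (ENSMUSG00000015839, chr2:75675513-75704641), which encodes NRF2, was highest in neutrophil-like cells, with 678, 694, and 689 CPM. All other types were far below in every mouse. Platelet-like cells had 410.1 and 95.4 CPM, interstitial-macrophage-like cells 168, 234, and 234 CPM, and AT2-like cells 171, 186, and 185 CPM. The lowest levels were in lymphocytes, with 44.3 ± 10.2 CPM in T-cell-like, 41.0 ± 1.02 CPM in B-cell-like, and 28.3 ± 12.9 CPM in NK-like cells, and these 3 ranges overlapped. *Nfe2l2* UMIs were found in 67.6% of 466 neutrophil-like cells and in 15.3% of B-cell-like cells, although the neutrophil-like cells had the lower median depth, and the shares were 46.8% and 4.09% when thinned.

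*Hmox1* (ENSMUSG00000005413, chr8:75093621-75100589) encodes heme oxygenase 1, which degrades heme. It was sparse, with 1195 UMIs. Macrophages had the highest levels outside the platelet-like cells, with 39.4, 174, and 97.6 CPM in interstitial-macrophage-like and 59.0, 92.1, and 131 CPM in alveolar-macrophage-like cells. The mice differed widely, and the ranges of these types overlapped. AT2-like cells (35.0, 41.3, and 33.0 CPM), neutrophil-like cells (28.3, 45.2, and 28.1 CPM), and *Col13a1*-type fibroblasts (29.3, 23.7, and 32.4 CPM) came next among the types with 3 mice. The range of neutrophil-like cells overlapped both others, while that of AT2-like cells lay above that of the fibroblasts. No *Hmox1* UMI was found in 1783 B-cell-like cells, where the floor is 0.388 CPM, or in 79 NK-like cells, where it is 6.06 CPM.

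*Nqo1* (ENSMUSG00000003849, chr8:107388225-107403206), the quinone reductase, had 178 UMIs in all kept cells. Its levels were 11.0 ± 7.86 CPM in *Col14a1*-type fibroblasts, 10.8 ± 6.77 CPM in venous-like ECs, 9.87 ± 1.29 CPM in smooth-muscle-like cells, and 9.39 ± 1.49 CPM in club-like cells. These 4 types could not be ordered, as their ranges overlapped. AT2-like cells, with 12 UMIs in 1043 cells, had 0.700 ± 0.698 CPM. *Nqo1* was left out of the tests between types by the filter on low counts.

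**Figure D3:**
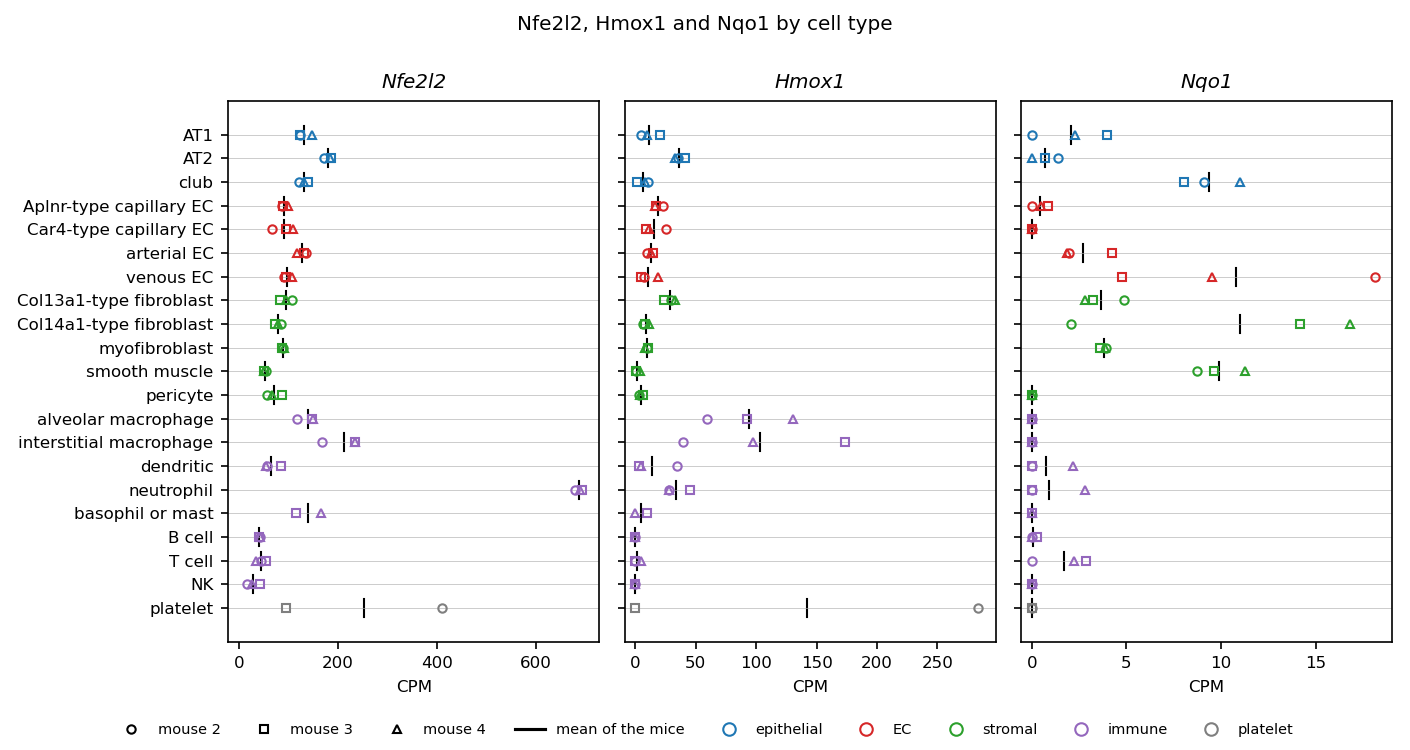
CPM (x axis, a separate scale for each gene) of *Nfe2l2*, *Hmox1*, and *Nqo1* in 21 cell types (rows, colored by class), with open symbols for single mice and a black line for the mean. *Nfe2l2* stands apart in neutrophil-like cells (687 ± 8.23 CPM), and *Hmox1* is highest in macrophages and in the platelet-like sum of mouse 2.

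To compare the classes, each was tested against the mean of the other 3 on UMIs summed per mouse (edgeR quasi-likelihood test, Benjamini-Hochberg adjustment over 14207 genes, threshold 0.05). Classes differ in a large part of the transcriptome, so the share of all genes called is given beside each count. In epithelial cells 7 of the 10 genes were higher (34.6% of all genes) and 2 were lower (36.5%). *Cat* rose by 3.08 (log2 fold change, SE 0.05, adjusted *p* = 6.87e-19), with 531 ± 42.6 CPM in epithelial and 76.2 to 83.9 CPM on average in the other classes. *Prdx6* (2.30), *Hmox1* (1.69), *Sod2* (1.41), *Sod1* (1.30), *Nfe2l2* (1.22), and *Gpx1* (0.67) also rose on the log2 scale. *Sod3* (log2 fold change -2.67, SE 0.65, adjusted *p* = 0.00479) and *Gpx3* (-2.61, SE 0.85, adjusted *p* = 0.0216) were lower. The *Gpx3* call was lost without mouse 2 (log2 fold change -2.37, adjusted *p* = 0.0985) or without mouse 3 (-2.11, adjusted *p* = 0.123). The median log2 fold change was 1.26 over the 10 genes and -0.09 over all genes.

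In ECs none of the 10 genes was higher (29.5% of all genes) and 5 were lower (29.9%). *Gpx1* was lower by the widest margin, with a log2 fold change of -2.02 (SE 0.08, adjusted *p* = 3.57e-13). Its level was 74.7, 90.9, and 91.8 CPM in ECs of the 3 mice, under the lowest mouse of every other class. *Prdx6* (-1.31), *Cat* (-1.30), *Sod2* (-0.65), and *Nfe2l2* (-0.47) were lower too. The mean of the other classes includes epithelial cells, which had the highest CPM for each of these genes. By CPM, ECs were above the stroma in every mouse for *Sod2* (55.8 to 60.1 against 53.0 to 55.6) and *Nfe2l2* (92.3 to 104 against 75.5 to 81.4). For *Cat* (76.2 CPM) and *Prdx6* (91.7 CPM) ECs had the lowest mean, with immune cells next at 82.2 and 104 CPM. *Sod1* was called higher at an unadjusted *p* under 0.05, but its log2 fold change of 0.15 had an adjusted *p* of 0.0773 with edgeR, and DESeq2 called 0 of the 10 genes higher. *Sod1* passed with the mouse as a block in the fit (adjusted *p* = 0.0418), with marked doublets removed, with classes taken from each cell's own markers, and without TMM scaling (0.43). ECs held 1.47% of *Sod3* and 2.19% of *Gpx3* UMIs, and neither gene passed in this contrast. The median was -0.42 over the 10 genes and -0.07 over all genes.

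In stromal cells 3 of the 10 genes were higher (36.3% of all genes) and 6 were lower (30.4%). *Sod3* was at 354, 362, and 293 CPM in the stroma against 2.64, 16.4, and 10.4 CPM in ECs, the next class, and its log2 fold change was 6.67 (SE 0.28, adjusted *p* = 2.01e-08). *Gpx3*, at 184, 247, and 124 CPM, had a log2 fold change of 6.11 (SE 0.36, adjusted *p* = 3.6e-07). *Nqo1* rose by 2.06 on the log2 scale (SE 0.29, adjusted *p* = 5.41e-06) with 99 UMIs in the class. *Gpx1* did not pass (-0.05, SE 0.07, adjusted *p* = 0.55). *Prdx6* was among the lower genes (-0.26), a call that was lost without mouse 4 (adjusted *p* = 0.0677) and without TMM scaling (-0.13, adjusted *p* = 0.132). By CPM the stroma came second to epithelial cells for *Prdx6*, at 142 to 152 CPM against 97.5 to 108 CPM in immune cells, the next class. It also had the second mean for *Cat* (83.9 CPM), with a range that overlapped that of immune cells. The medians were -0.43 over the 10 genes and -0.01 over all genes.

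Immune cells had 1 gene higher (37.8% of all genes) and 8 lower (38.3%). *Gpx1* rose by 1.40 (SE 0.07, adjusted *p* = 1.5e-12), at 458, 401, and 420 CPM. A gene called lower here was not always lowest in immune cells, as the mean of the others includes epithelial cells. By CPM, immune cells came second for *Sod2* (62.3, against 57.4 in ECs and 54.5 in the stroma). For *Cat* they were above ECs in every mouse (77.8 to 84.7 against 73.5 to 77.7). Their mean of *Hmox1* was 10.8 CPM, against 9.59 CPM in the stroma, with overlapping ranges. Of the lower genes, *Sod2* (-0.17) was not called without mouse 3 (-0.087, adjusted *p* = 0.376) or mouse 4 (adjusted *p* = 0.107), at resolution 1.2, with classes from each cell's own UMIs, or with the stricter cell filter described next (0.029). *Gpx3* was not called without mouse 3 (adjusted *p* = 0.0513). *Nfe2l2* did not pass (-0.02, SE 0.06, adjusted *p* = 0.744), but was called higher with a stricter cell filter of 500 genes and 10% mitochondrial UMIs (0.30). The class joins neutrophil-like cells, with the highest *Nfe2l2* level, and B-cell-like cells, with one of the lowest. The medians were -0.78 over the 10 genes and -0.05 over all genes.

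**Figure D4:**
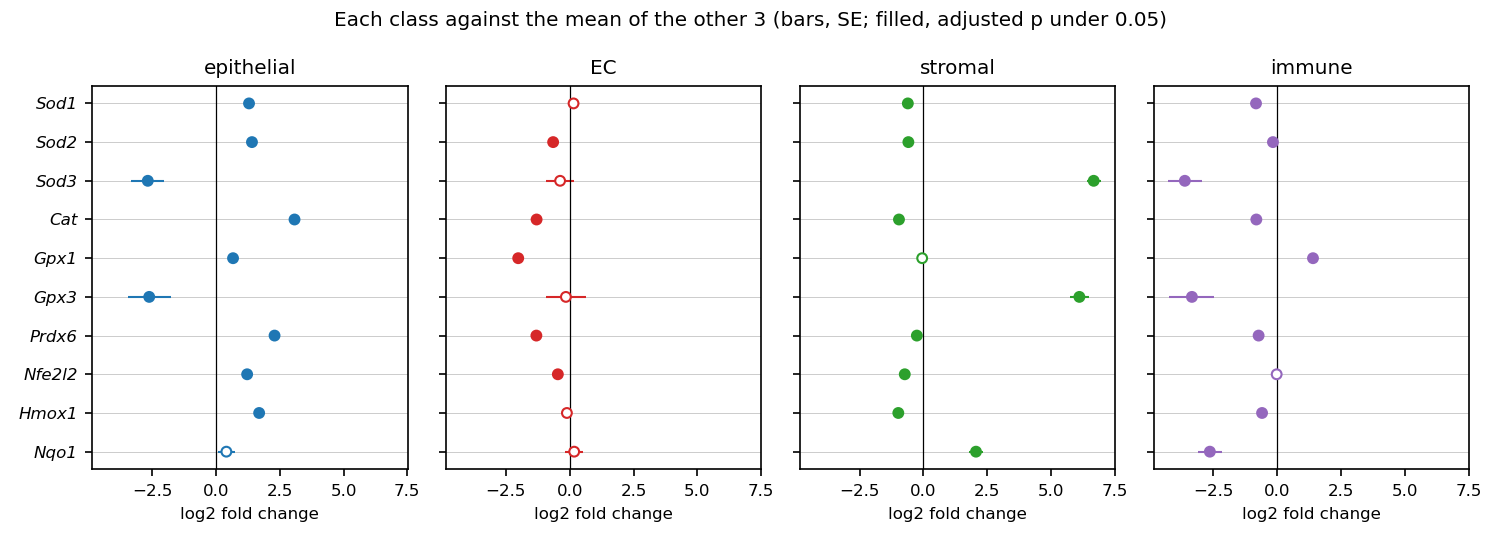
Log2 fold change (x axis) of the 10 genes in each class against the mean of the other 3 classes, from sums of 3 mice. Bars are SE and filled points have an adjusted p under 0.05. Epithelial cells have 7 filled points to the right, ECs have 5 to the left, and *Sod3* and *Gpx3* stand out in stromal cells at 6.67 and 6.11.

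Between cell types, 61 sums of 21 types were tested in 1 fit with 12377 genes. All 9 genes that passed the filter on low counts differed between types (98.5% of all genes did). The adjusted *p* ran from 7.54e-43 for *Cat* to 3.66e-16 for *Hmox1*. Each type was then compared with the mean of the others. The median log2 fold change of all genes was not 0 in these contrasts. It was 0.38 in myofibroblast-like, 0.31 in AT2-like, 0.07 in NK-like, and -3.16 in platelet-like cells. Over the types, 7.17% to 42.5% of all genes were called higher and 1.85% to 15.3% lower. Because *Sod3*, *Gpx3*, and *Hmox1* had sums of 0 UMIs in several types, only calls and no fold changes are given for them in these contrasts. In this fit none of them was called lower in any of the 21 types, not even *Hmox1* in B-cell-like cells with 0 UMIs. Counts of lower genes by edgeR therefore cover the other genes only, and none lower says nothing about *Sod3*, *Gpx3*, or *Hmox1*.

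In AT2-like cells, 7 of 9 genes were higher (40.3% of all genes) and none lower (6.73%). They were *Cat* (log2 fold change 3.24, SE 0.08), *Sod2* (1.27), *Nfe2l2* (1.24), *Sod1* (1.22), *Prdx6* (1.06), *Gpx1* (0.48), and *Hmox1*. *Gpx1* was not called without TMM scaling (0.05). AT1-like cells had 6 higher (29.9%) and none lower (6.81%), led by *Prdx6* (3.27, SE 0.11) and *Cat* (1.45). Without the smaller of their 2 clusters, described further on, the count was 4, with *Cat* at -0.096 and *Nfe2l2* at -0.062. Club-like cells had 5 higher (32%) and none lower (8.89%), with *Prdx6* at 2.77, *Sod2* at 2.15, and *Sod1* at 1.80. In these 3 types no gene was lower at an unadjusted *p* under 0.05 with edgeR either, whereas DESeq2 called 1, 2, and 1 genes lower in AT2-like, AT1-like, and club-like cells. These were *Gpx3* in AT2-like cells, *Sod3* and *Gpx3* in AT1-like cells, and *Sod3* in club-like cells. Percentages in brackets are shares of edgeR calls, and no share of all genes is given for DESeq2.

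Neutrophil-like cells had 5 higher (23.4%) and 1 lower (8.16%), with *Nfe2l2* at 3.51 (SE 0.09), *Prdx6* at 2.40, *Gpx1* at 1.80, *Sod2* at 1.68, and *Cat* lower at -2.30 (SE 0.29). Alveolar-macrophage-like cells had 4 higher (18.6%), which were *Gpx1* (2.48), *Sod2* (0.91), *Nfe2l2* (0.55), and *Hmox1*, and 1 lower (5.41%), which was *Prdx6* (-2.14). The calls of *Sod2* and *Nfe2l2* there were lost without mouse 3 or mouse 4 (0.44 to 0.69). NK-like cells had 0 higher (18%) and 5 lower (3.75%), with *Nfe2l2* at -1.87 and *Gpx1* at -1.25. T-cell-like cells had 0 higher (29.3%) and 4 lower (5.5%). DESeq2 and an unadjusted *p* under 0.05 with edgeR likewise called 0 genes higher in NK-like and T-cell-like cells, and DESeq2 called 6 and 8 lower. B-cell-like cells had 1 higher (39.3%), *Gpx1*, and 3 lower (7.35%), *Prdx6*, *Nfe2l2*, and *Sod1*, against 7 lower by DESeq2. The *Gpx1* call there was lost with the stricter cell filter (0.14), with doublets removed (0.13), without TMM scaling (0.14), and at resolution 1.2 (0.28).

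Among the other immune types, dendritic-like cells had 2 higher (28.4%), *Gpx1* (2.47, SE 0.10) and *Sod1* (1.32), and 1 lower (5.38%), *Nfe2l2* (-0.56). Interstitial-macrophage-like cells had 3 higher (15.7%), *Gpx1* (2.20), *Nfe2l2* (0.95), and *Hmox1*, and 1 lower (2.07%), *Prdx6* (-1.58). Monocyte markers scored second in their cluster (mean log2 fold 2.79, against 5.17 for their own markers). With the stricter cell filter a separate monocyte-like type was named, which had the highest mean of *Gpx1* (1355 CPM). In that setting *Sod1* was called lower in interstitial-macrophage-like cells (-1.50), against 0.01 and no call in the main fit. Basophil- or mast-like cells had *Gpx1* higher (10.7%) and none lower (1.85%), with 0 lower also by DESeq2 and at an unadjusted *p* under 0.05 with edgeR. Platelet-like cells had 4 higher (7.17%) and 2 lower (15.3%), from 2 mice of which 1 held the single deep cell.

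Stromal types were set apart by the secreted enzymes. *Col13a1*-type fibroblasts had 4 higher (30.3%), *Gpx3*, *Sod3*, *Hmox1*, and *Prdx6* (0.93), and 1 lower (7.13%), *Gpx1* (-0.89). *Col14a1*-type fibroblasts had *Sod3* and *Gpx3* higher (29.9%) and 4 genes lower (6.24%). Smooth-muscle-like cells had *Sod3*, *Gpx3*, and *Gpx1* (0.66) higher (36.7%) and 4 genes lower (6.57%). Myofibroblast-like cells had *Sod3* and *Gpx3* higher (42.5%) and *Nfe2l2* and *Gpx1* lower (6.1%), against 4 lower by DESeq2. *Gpx1* was at -0.03 and not called there at resolution 0.4. *Sod1* and *Sod2* were called lower in them by DESeq2, with the stricter cell filter, with at least 20 cells per sum, without mouse 2 or mouse 3, and without the platelet-like type (-0.25 to -0.49). Pericyte-like cells had 1 gene higher (21.5%), *Gpx3*, and 5 lower (5.16%), of which *Prdx6* was at -1.27 and *Nfe2l2* at -0.88. DESeq2 called 4 lower, without *Cat*. With the stricter cell filter *Cat* (-0.27), *Gpx1* (-0.38), and *Sod1* (-0.37) were not called. *Cat* and *Sod1* were also lost without TMM scaling and with no filter on low counts. *Cat* was lost with at least 20 cells per sum too. The type joins a cluster of 91 cells (median 7865 UMIs) and a shallow one of 42 cells (median 741 UMIs).

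AT2-like and AT1-like cells, the 2 epithelial types of the alveolus, differed in *Cat* and *Prdx6* in opposite directions. In AT2-like minus AT1-like cells 4 of 9 genes were higher (21.8% of all genes) and 1 was lower (13.1%). *Cat* differed by 1.70 on the log2 scale (SE 0.14, adjusted *p* = 3.02e-17) and *Hmox1* by 2.25 (SE 0.39, adjusted *p* = 6.34e-06). *Nfe2l2* differed by 0.84 (SE 0.13) and *Sod2* by 0.35 (SE 0.14, adjusted *p* = 0.039), a call that was lost without any 1 of the mice (0.14 to 0.31). *Prdx6* went the other way, with a log2 fold change of -2.10 (SE 0.20, adjusted *p* = 7.44e-13). *Sod1* (-0.08, SE 0.14) and *Gpx1* (-0.01, SE 0.17) did not pass, although both were called lower without TMM scaling (-0.48 and -0.41), where *Sod2* was at -0.055. The medians were 0.84 over the 9 genes and 0.23 over all genes.

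AT1-like cells consisted of 2 clusters that differed in both *Cat* and *Prdx6*. The larger one (129 cells, median 6208 UMIs) had 91.4 CPM of *Cat* and 1813 CPM of *Prdx6* over pooled cells. The smaller one (37 cells, median 35994 UMIs) had 383 CPM of *Cat* and 997 CPM of *Prdx6*, both between the larger cluster and the AT2-like cells (613 and 239 CPM). The 6 AT2 markers summed to 2621 CPM in the larger cluster, 113981 CPM in the smaller, and 208862 CPM in AT2-like cells, and the 6 AT1 markers to 22201, 11674, and 1689 CPM. The part of AT2 transcripts in the smaller cluster was not tested. With the smaller cluster left out, an alternative chosen after seeing the data, AT1-like cells were no longer called higher than the mean of the other types for *Cat* (adjusted *p* = 0.958) or *Nfe2l2*, whereas *Prdx6* stayed higher (3.58). In the same setting the difference of AT2-like minus AT1-like cells was 3.25 for *Cat*, 1.25 for *Nfe2l2*, 3.61 for *Hmox1*, and -2.41 for *Prdx6*, and all 4 were called.

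Within the stroma, *Sod3* and *Gpx3* divided the cell types. In *Col13a1*-type fibroblasts minus myofibroblast-like cells, 4 of 9 genes were higher (12.8% of all genes) and none was lower (18%). *Gpx3* differed by 2.48 (SE 0.25, adjusted *p* = 1.82e-10), *Hmox1* by 1.55 (SE 0.40), *Sod3* by 1.14 (SE 0.22, adjusted *p* = 5.02e-05), and *Prdx6* by 1.01 (SE 0.21) on the log2 scale. The *Sod3* difference was not called by DESeq2 (1.23, adjusted *p* = 0.103), and that of *Hmox1* was lost without mouse 4 (1.46, adjusted *p* = 0.0897). *Gpx1* was at -0.44 (unadjusted *p* under 0.05, adjusted *p* = 0.0599) and passed with the mouse as a block (adjusted *p* = 0.0488), while DESeq2 called 0 genes lower. *Sod1* (0.26) was not called, but was higher by DESeq2, with at least 20 cells per sum, with the stricter cell filter, with doublets removed, and without the platelet-like type (0.36 to 0.41). The medians were 0.26 over the 9 genes and -0.14 over all genes.

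Myofibroblast-like cells were also of 2 kinds. The cluster led by *Aspn* and *Hhip* (453 cells) had 401, 402, and 319 CPM of *Sod3* and 101, 78.2, and 42.9 CPM of *Gpx3* in mice 2, 3, and 4. The cluster led by *Pdgfra* and *Agt* (355 cells) had 85.0, 85.2, and 72.8 CPM of *Sod3* and 202, 235, and 83.4 CPM of *Gpx3*. In each mouse the order of the clusters was thus opposite for the 2 secreted enzymes. Per cell, UMIs of both genes were found in 74.8% of *Col13a1*-type fibroblasts, 40% of *Col14a1*-type fibroblasts, 27.8% of smooth-muscle-like cells, 25.2% of myofibroblast-like cells, and 2.26% of pericyte-like cells. In smooth-muscle-like cells 197 had *Sod3* UMIs alone and 5 had *Gpx3* UMIs alone, whereas in pericyte-like cells 0 had *Sod3* alone and 45 had *Gpx3* alone. These shares depend on the depth of a cell.

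**Figure D5:**
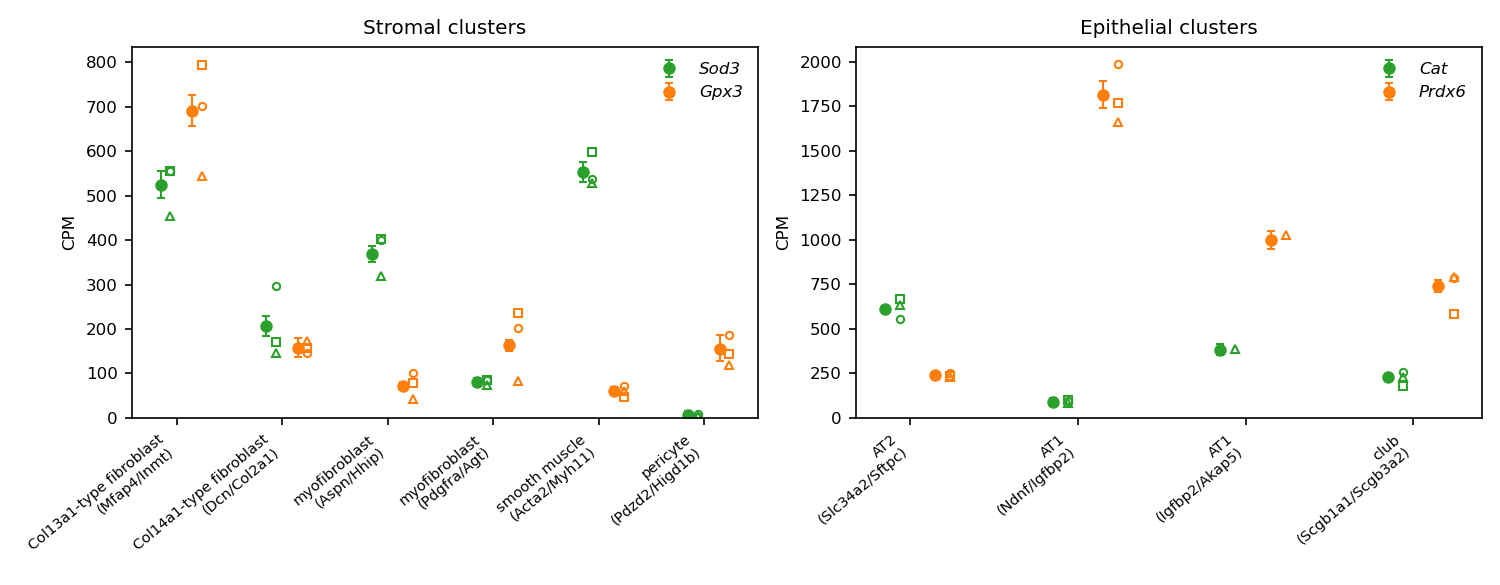
CPM (y axis) of *Sod3* and *Gpx3* in stromal clusters (left) and of *Cat* and *Prdx6* in epithelial clusters (right), with the 2 leading genes of each cluster in brackets. Filled points pool the cells, with exact 95% Poisson intervals for counting error only, and open symbols are mice with at least 10 cells. *Sod3* is higher and *Gpx3* lower in the *Aspn*/*Hhip* cluster than in the *Pdgfra*/*Agt* cluster, and *Cat* and *Prdx6* run in opposite orders over the alveolar clusters.

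*Gpx1* was lower than the mean of the other types in each of the 4 EC types, by a log2 fold change of -2.67 (SE 0.20) in the *Car4* type, -2.00 (SE 0.16) in the *Aplnr* type, -1.38 in arterial-like, and -1.10 in venous-like ECs. The *Car4* type had 0 genes higher (26.2% of all genes) and 4 lower (4.75%), and no gene was higher there by DESeq2 or at an unadjusted *p* under 0.05 with edgeR. Arterial-like ECs had 1 gene higher (27.5%), *Sod1* at 0.74, and 3 lower (4.06%). Venous-like ECs had *Sod1* higher (26.6%) and 4 genes lower (4.11%), and the *Aplnr* type had *Sod1* and *Hmox1* higher (36.8%) and 4 lower (5.12%). DESeq2 did not call *Hmox1* in the *Aplnr* type (adjusted *p* = 0.105). Over all settings *Sod1* ran from 0.066 to 0.50 in the *Aplnr* type and from 0.24 to 0.63 in venous-like ECs. The median log2 fold change of all genes in the main fit was 0.35 and 0.27 in these types, and 0.29 in arterial-like ECs. The *Sod1* call in the *Aplnr* type was lost without any 1 of the mice (0.066 to 0.37), and that in venous-like ECs without mouse 2 or mouse 3 (0.31 and 0.24).

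DESeq2 also called more genes lower in alveolar-macrophage-like (2), dendritic-like (3), smooth-muscle-like (6), arterial-like (4), and venous-like cells (5). The share of all genes that DESeq2 called lower is not given here. Its counts for the members therefore cannot be told from a larger number of lower calls over all genes. Other calls against the mean of the types that were lost when 1 mouse was left out were mostly small differences of *Nfe2l2*, *Cat*, and *Gpx1*. A call lost in this way need not rest on that mouse, because the fit then also holds fewer sums. *Cat* in pericyte-like cells, for example, was lost whichever mouse was left out. Without mouse 2, the calls lost were *Prdx6* (-0.44) and *Nfe2l2* (-0.28) in *Car4*-type ECs, *Cat* in *Col14a1*-type fibroblasts (-0.43) and smooth-muscle-like cells (-0.35), and *Cat* (-0.50) and *Sod1* (-0.46) in pericyte-like cells. Without mouse 3 they were *Nfe2l2* in *Aplnr*-type (-0.27) and *Car4*-type ECs (-0.40), in *Col14a1*-type fibroblasts (-0.14) and in myofibroblast-like cells (-0.21), and *Cat* (-0.35) and *Gpx1* (-0.44) in pericyte-like cells. Without mouse 4 they were *Nfe2l2* in AT1-like (0.31), dendritic-like (-0.45), and interstitial-macrophage-like cells (0.73), *Nfe2l2* (-0.37), *Cat* (-0.38), and *Gpx1* (-0.41) in *Col14a1*-type fibroblasts, *Cat* (-0.39), *Gpx1* (-0.63), and *Sod1* (-0.36) in pericyte-like cells, *Cat* (-0.35) and *Sod1* (-0.40) in smooth-muscle-like cells, *Cat* (-0.55) and *Sod2* (-0.55) in venous-like ECs, *Gpx1* in myofibroblast-like cells (-0.34), *Hmox1* in *Aplnr*-type ECs, and *Sod2* in platelet-like cells.

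Capillary ECs of the *Car4* and *Aplnr* types had no called difference in any of the 9 genes (4.07% of all genes were higher and 5.07% lower). *Gpx1* came nearest, with a log2 fold change of -0.64 (SE 0.24, unadjusted *p* under 0.05, adjusted *p* = 0.0831), and DESeq2 called 0 genes in either direction. It passed with at least 20 cells per sum (adjusted *p* = 0.0448). *Sod3* in the *Aplnr* type varied between 1.64, 24.8, and 6.12 CPM, and 40 of its 45 UMIs were in a sub-cluster of 65 cells (median 1947 UMIs), which also had 46 of the 49 *Gpx3* UMIs. With marked doublets removed, the means in the *Aplnr* type were 1.76 CPM for *Sod3* and 1.03 CPM for *Gpx3*, and *Gpx3* was then called higher in the *Car4* type (adjusted *p* = 0.00779). Stromal marker genes summed to 643 to 1215 CPM in the *Aplnr* type and to 27417 to 30922 CPM in stromal cells. These sums were not split by gene, and the part of stromal RNA in the *Sod3* and *Gpx3* UMIs was not tested.

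Alveolar-macrophage-like and interstitial-macrophage-like cells had no called difference either (6.58% of all genes were higher and 7.67% lower). At an unadjusted *p* under 0.05 with edgeR the count was 0 in both directions, as it was with DESeq2. The log2 fold change was 0.26 for *Gpx1* (SE 0.18), 0.09 for *Hmox1* (SE 0.49), and -0.38 for *Nfe2l2* (SE 0.24). With 72 and 114 cells, differences of *Hmox1* of this size could not be resolved.

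A list of 75 other genes of the pathway was followed in the class comparisons, and 74 passed the filter on low counts. Epithelial cells had 47 of them higher (34.6% of all genes) and 15 lower (36.5%), and ECs 13 (29.5%) and 49 (29.9%). Stromal cells had 29 (36.3%) and 30 (30.4%), and immune cells 25 (37.8%) and 36 (38.3%). Without TMM scaling the counts were 39 and 22 in epithelial cells and 22 and 40 in ECs. The median log2 fold change of all genes then also moved, to -0.46 and 0.22. The share of all genes called without TMM is not given, so these counts cannot be told from a shift of all genes. The medians over the list were 0.66 in epithelial cells, -0.64 in ECs, and -0.11 in both other classes. In epithelial cells 10 of 11 glutathione transferases, which conjugate glutathione to reactive compounds, were higher, and 8 of 11 peroxiredoxins and thioredoxins (34.6% of all genes). The genes with the largest rise there were *Aox3* (7.49), an aldehyde oxidase, and *Gsta4* (6.23), a transferase for lipid aldehydes, with *Gpx2*, the gut-type glutathione peroxidase, left out of this order because ECs had 0 UMIs of it in every mouse. *Gpx2* was called higher at 14.9 ± 4.35 CPM. *Cybb* (-3.49), the catalytic subunit of the phagocyte NADPH oxidase, the iron exporter *Slc40a1* (-2.95), and the oxidase *Nox4* (-2.88) were lower by the widest margins.

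Immune cells had 5 of 8 genes for sources of superoxide and peroxide higher (37.8% of all genes) and 9 of 11 glutathione transferases lower (38.3%). *Slc7a11*, the cystine transporter, rose by 8.27 and *Cybb* by 7.58 on the log2 scale. *Cybb* was at 209 ± 27.4 CPM in immune cells and at 0.603 to 1.89 CPM on average in the other classes. *Gstm2* (-6.47), the malic enzyme gene *Me1* (-5.86), and *Gpx8* (-5.73), a peroxidase of the endoplasmic reticulum, were lower. Stromal cells had *Nox4* (7.09), which produces hydrogen peroxide, *Gstm5* (4.11), and *Gstt1* (3.75) higher, and *Mgst2* (-3.92), *Ncf1* (-2.99), and *Gclc* (-2.17), a subunit of the enzyme that limits glutathione synthesis, lower. *Nox4* stood at 97.7 ± 11.5 CPM in the stroma and at 3.92 CPM or less on average elsewhere.

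In ECs, 7 of 10 genes for glutathione peroxidases and glutathione synthesis and 6 of 7 for heme and iron handling were lower (29.9% of all genes). Beside *Gpx2*, *Slc7a11* (-4.96) and the metallothionein *Mt1* (-4.40) were lower by the widest margins. *Gstm2* (1.72), *Gstm1* (1.40), and the selenium carrier *Selenop* (1.40) were higher. *Selenop* was at 653 ± 26.5 CPM in ECs, 492 ± 15.0 CPM in epithelial cells, 188 ± 7.26 CPM in the stroma, and 91.8 ± 18.9 CPM in immune cells.

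The genes whose levels ran most alike to each of the 10 over the 21 cell types were found by Pearson's *r* of log2(mean CPM + 10), as a description. *Sod3* was closest to *Adamts15* (0.98) and *Loxl1* (0.97), *Gpx3* to *Olfml3* (0.96) and *Mdk* (0.95), and *Cat* to *D230025D16Rik* (0.84) and *Cyb5b* (0.82). *Gpx1* ran with *Prkcd* (0.88) and *Arl11* (0.86), *Prdx6* with *Slc39a4* (0.90) and *Pls1* (0.83), *Nfe2l2* with *Dusp16* (0.82) and *Adipor1* (0.79), and *Hmox1* with *Ftl1* (0.90), the ferritin light chain, and *Tfec* (0.81). For *Sod1* the genes were *Ids* (0.87) and *Pgap2* (0.86), for *Sod2* *Larp4b* (0.90) and *Atp6v1g1* (0.83), and for *Nqo1* *Pir* (0.86) and *Adamts5* (0.85). The points share libraries, differ in cell number and depth, and include the platelet-like type.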

How the data were processed

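The authors deposited a matrix of counts per gene and cell for each of the 3 mice. Per the labels these are UMI counts from Cell Ranger 3.0.2 with the build mm10, and the annotation is not given in the sources used here. Reads had been aligned, assigned to cells, and collapsed by UMI before deposit, and no normalization had been applied. The matrices hold 9644 cells, whereas the design text of the series gives 5677, so the cells of the study were not recovered exactly.

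Cells were normalized with sctransform 0.4.2 and clustered with Seurat 5.3.0 (3000 variable genes without the 10 genes and the pathway list, 30 principal components or 20 for ECs, resolution 0.8). Clusters were named from fixed marker lists. The rule that scored the markers was set after the clusters were seen and before the values of the 10 genes were. The 10 genes and the lists were chosen with earlier results of these data known. Scrublet as run in scanpy 1.11.5 marked under 0.5% of cells as doublets at its own threshold, so the cells with the highest scores were marked instead (74, 79, and 97 in mice 2, 3, and 4) and kept.

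Counts were summed per mouse and class or cell type, with at least 10 cells per sum and 2 mice per type, and fitted with edgeR 4.0.16 (TMM, filterByExpr, robust quasi-likelihood test, R 4.3.3), which scales each sum for its composition. All groups shared a fit, and *p* values were adjusted over all genes of a contrast. Lymphatic-like ECs had enough cells in 1 mouse and were left out. DESeq2 1.42.0 was an alternative. On simulated counts with 14207 genes, edgeR recovered 76% of changes of 1 and 99% of changes of 2 (log2) in epithelial cells against the other classes. The changed genes were drawn above a minimum expected count, the spread was fixed, and all classes shared a mean profile apart from these changes. These shares therefore do not cover genes with few UMIs in a class, such as *Gpx3* in epithelial cells. The mouse is the replicate, and sums of the same number come from the same animal, so the numbers pair the samples. The correlation of their deviations had a median of 0.146 over 18 pairs of class sums and 0.03 over 590 pairs of type sums. Intervals and floors (3 UMIs) cover counting error only. Shares thinned to 1000 UMIs are expected values and leave out cells with fewer. Named genes were the 10 members throughout, the 3 called list genes with the largest change in each direction per class, and the 2 genes most alike to each member. A gene that this rule named is not reported here.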

Additional observations from a re-analysis of the deposited data

How the results depend on the processing

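Over all alternatives, 353 of 369 counts of calls stayed within 1.5 times the reported count, as did 1930 of 2035 log2 fold changes in direction and call, while 101 lost their call and 4 turned sign. These fold changes cover only calls of the main fit, so calls gained under an alternative are not among them. Of the gained calls, *Sod2* was lower in B-cell-like, smooth-muscle-like, and *Aplnr*-type cells under several alternatives, as was *Sod1* in alveolar-macrophage-like cells. For ECs the count of members higher was 1 in place of 0 with doublets removed, with classes from each cell's own UMIs, without TMM, and with the mouse as a replicate block. The block also called *Gpx1* lower in *Col13a1*-type fibroblasts minus myofibroblast-like cells (1 gene in place of 0, as at resolution 0.4 and with no filter on low counts) and *Cat* lower in *Col13a1*-type fibroblasts, and lost *Cat* in platelet-like cells (adjusted *p* = 0.0550). Pairing by mouse changed no other call of the 10 genes. Without TMM the median log2 fold change of all genes moved from -0.07 to 0.22 in ECs, from -0.09 to -0.46 in epithelial cells, from -0.01 to 0.12 in stromal cells, and from 0.23 to -0.12 in AT2-like minus AT1-like cells, where 3 genes were then lower and *Sod2* turned to -0.055, and the pathway genes higher in ECs rose from 13 to 22. The stricter cell filter gave 1 gene lower in epithelial and 2 higher in immune cells and turned *Sod2* in immune cells to 0.029. Leaving out 1 mouse gave 1 to 2 genes lower in epithelial cells. In *Car4*-type minus *Aplnr*-type ECs 1 gene was higher with doublets removed and 1 lower with no filter (*Sod3*) or at least 20 cells per sum (*Gpx1*). Of the alternatives chosen after seeing the data, leaving out the smaller AT1-like cluster turned *Cat* (-0.096) and *Nfe2l2* (-0.062) in AT1-like cells. Leaving out the platelet-like type lost *Sod1* in *Aplnr*-type and venous-like ECs, *Cat* in pericyte-like cells, and *Sod2* in AT2-like minus AT1-like cells. It gained *Sod2* lower in *Aplnr*-type ECs and in B-cell-like, myofibroblast-like, and smooth-muscle-like cells, and *Sod1* lower in alveolar-macrophage-like and myofibroblast-like cells. *Cat* higher in B-cell-like cells and *Sod1* higher in *Col13a1*-type fibroblasts minus myofibroblast-like cells were gained too. The causes were not tested. The highest type was the same in all alternatives for *Sod1*, *Sod2*, *Sod3*, *Cat*, *Gpx3*, and *Nfe2l2*. Depth limits *Nqo1* and *Hmox1* most, and the macrophage and *Col14a1*-type sums hold few cells.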

Other observations

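Cells that the marker lists left unnamed also held the 10 genes, given here as pooled values without a test. A cluster of 455 shallow cells (median 843 UMIs) led by *Hpgd*, *Sox7*, and *Epas1* had 495 CPM of *Sod1* (exact 95% Poisson interval 432 to 564, counting error only), with 471, 547, and 487 CPM in mice 2, 3, and 4, above the level of every named type in each mouse. The type list that scored best in this cluster was that of arterial ECs (mean log2 fold 1.13). Of that list, 3 markers were detected and 0 were among the 10 leading genes. Among the class lists, that of ECs scored 0.02, below that of erythroid cells (0.06). The naming rule left the cluster unnamed. Its cells were therefore not among the ECs of the main class contrasts. A cluster of 156 cells led by the neuronal genes *Uchl1*, *Pcsk1n*, *Sncg*, and *Prph* (median 769.5 UMIs) had 252 CPM of *Sod1*, 151 CPM of *Sod2*, and 87.1, 127, and 18.2 CPM of *Gpx3* in the 3 mice. Dividing cells with *Top2a* and *Mki67* (138 cells) had 117, 190, and 201 CPM of *Cat* and 221 CPM of *Sod1*.

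An immune cluster of 65 cells led by *Il1rl1*, *Arg1*, and *Gata3* had 211, 221, and 127 CPM of *Prdx6* and 0 UMIs of *Sod3*, *Gpx3*, *Hmox1*, and *Nqo1*. In arterial-like ECs all 20 *Sod3* UMIs were in the cluster led by *Cytl1* and *Vwf* (27.6 CPM) and 0 in the other arterial-like cluster. Stromal markers (*Col1a1*, *Col1a2*, *Col3a1*, *Dcn*, *Mgp*, *Sparcl1*, and *Pdgfrb*) summed to 5368 to 8511 CPM in arterial-like ECs. The sum was not split by gene, so it cannot tell RNA of stromal cells from markers that these ECs express themselves. The part of stromal RNA in these *Sod3* UMIs was not tested.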
